A study of Mus musculus with 6 samples.

Results

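The nuclei described here are Gfap-negative nuclei with transcripts of parenchymal astrocytes, the astrocytes of grey matter and brain tissue away from the ventricles and the brain surface. They were chosen by counts of marker transcripts in each nucleus. A nucleus was a member when at least 3 of 7 astrocyte genes were detected (Aqp4, Slc1a3, Gja1, Aldh1l1, Slc4a4, Bmpr1b and Slc7a10, called the rule genes here), when no Gfap transcript was counted, and when few or no transcripts of neurons, oligodendrocyte progenitors, oligodendrocytes, ependymal cells or dividing cells were present. The rule was met by 7729 of 75867 nuclei, or 10.2% (95% exact binomial interval 9.97 to 10.4, which covers counting error only).

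Single-nucleus RNA-sequencing (snRNA-seq) counts the transcripts of single nuclei captured in droplets by unique molecular identifiers (UMIs). It was performed on flash frozen forebrain of 3 WT mice and 3 Npc1-/- littermates at P16, in a study that asked which brain cell types are affected early by loss of the cholesterol transporter NPC1. The Npc1-/- mice carried the Npc1nih null allele in the whole body, and all mice were F1 hybrids from crosses of BALB/cJ and C57BL6/J Npc1+/- parents. All nuclei came in 1 matrix of 6 libraries, told apart only by a suffix from 1 to 6 on the barcode, and which library came from which mouse could not be read from the sources used here. WT and Npc1-/- nuclei were therefore not compared. Libraries are named by suffix, values are shown for each library or as a range, and no p-value was computed.

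The libraries held between 8217 and 16118 barcodes and between 51343653 and 107583300 UMIs. Members had a median of 3715 UMIs and 2086 detected genes per nucleus, and the median of UMIs lay between 2623 and 4273.5 in the 6 libraries. Barcode sequences were shared between libraries by 1264 nuclei, 134 of them members, and 5 such sequences were members in both libraries.

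Astrocytes clear glutamate and potassium from the space around synapses, join into networks through gap junctions, and supply neurons with metabolites. They are also the main source of lipoprotein cholesterol in the brain, which they load onto apolipoprotein E. Gfap, an intermediate filament protein widely used as an astrocyte marker, is abundant in astrocytes of white matter and of the brain surface and in reactive astrocytes, whereas most cortical grey matter astrocytes hold little of it.

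The label astrocyte held for only a part of the members. The check used a list of 24 astrocyte genes outside the rule, among them the glutamate transporter Slc1a2, glutamine synthetase Glul and the transcription factor Sox9. The share of a nucleus's UMIs that came from this list fell into 2 ranges among members, with the fullest 0.25-point bins at 0.25% to 0.5% (1043 nuclei) and at 2% to 2.25% (468 nuclei), and only 344 nuclei in the bin that starts at 1%. A limit of 1% was set after this distribution was seen. Members at or above it, called identity-rich, numbered 4593, or 59.4% (95% interval 58.3 to 60.5). The other 3136 members are called identity-poor. The level of any identity gene in either range is in part fixed by this choice, which holds below for Slc1a2, Glul, Gjb6, Sox9, Fgfr3, Apoe, Gpc5, Mertk and Acsl3, and for lists that hold them. The share is a range and not a type, and 795 members (10.3%) lay within 0.25 points of the limit.

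**Figure D1:**
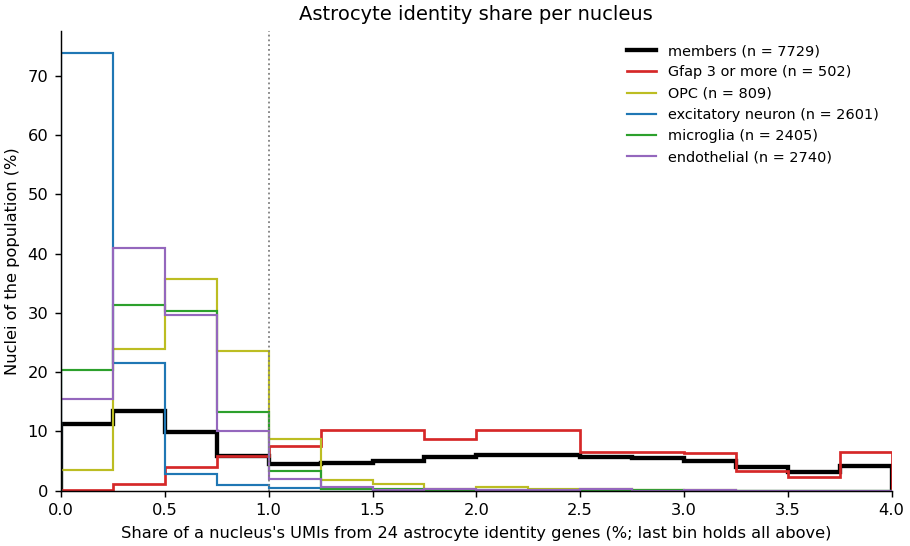
Distribution of the share of a nucleus's UMIs that came from the 24 astrocyte identity genes (x axis, percent, last bin open) in members and in 5 other populations (y axis, percent of the population's nuclei). The members (black) have 1 mode below 0.5% and another near 2%, with the dotted line at 1%, whereas excitatory neurons, microglia, endothelial nuclei and OPCs lie mostly below 1%. Nuclei with Aqp4 transcripts were left out of the latter populations when they were chosen.

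Smaller shares of nuclei of other cell types reached this limit, but these populations were also chosen by counts. Excitatory neurons, microglia and endothelial nuclei were taken only without Aqp4 and Gja1 UMIs, and oligodendrocyte progenitors only without Aqp4 UMIs. Nuclei that also met the astrocyte rule were left out. The low shares are thus in part fixed by this choice. The median over libraries of the identity-rich share was 0.865% in excitatory neurons, 3.81% in microglia, 3.61% in endothelial nuclei, 12.5% in oligodendrocyte progenitors (OPCs) and 12.9% in ependymal nuclei. Among nuclei that met the same rule but for Gfap, it was 76.7% with 1 or 2 Gfap UMIs and 89.8% with at least 3. A large part of the list sum in OPCs came from 1 gene. Gpc5 was at 2408 to 4000 CPM in OPCs of the 6 libraries, beside a pooled list sum of 6988 CPM. Over the whole matrix 12490 nuclei reached the limit, and 36.8% of them were members, while 31.7% had a Gfap transcript, 22.7% had under 3 rule genes and 21.2% had over 1 UMI of the neuronal transmitter genes, with overlap between these classes.

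The identity-rich share of members was 66.1%, 60.7%, 47.1%, 41.5%, 78.6% and 76.0% in libraries 1 to 6. It was lowest in libraries 3 and 4 and highest in libraries 5 and 6, and the intervals of these pairs did not overlap. Members of libraries 3 and 4 were also the deepest, with median UMIs of 4126.5 and 4273.5, against 2904 and 2623 in libraries 5 and 6. When every nucleus was thinned to 2000 UMIs, which left out 739 shallower members, the shares were 66.0%, 61.5%, 48.2%, 42.3%, 78.3% and 74.8%. The order of the libraries by this share was the same after thinning. Only the share was put at equal depth, since these members had been chosen on their full counts. The members left out were unevenly spread, with 0 from library 4 and 256 from library 5. The part of depth in these differences was therefore not tested. The share of a library's nuclei that were members varied less, at 10.2%, 10.4%, 10.1%, 11.5%, 10.2% and 7.95%.

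**Figure D2:**
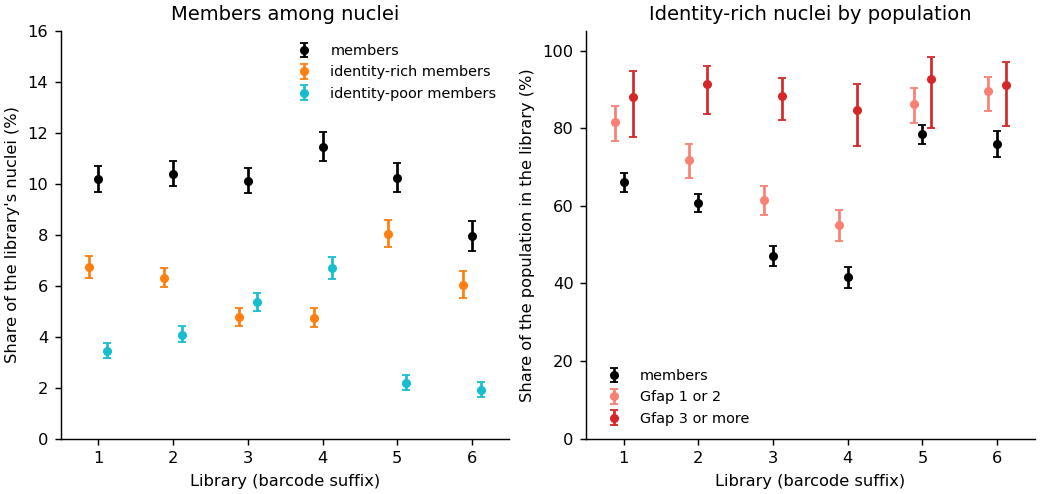
Left, share of each library's nuclei (y axis, percent) that were members, identity-rich members or identity-poor members, by library (x axis). Right, share of identity-rich nuclei in members and in nuclei with Gfap transcripts that met the rest of the rule, with bars for 95% exact binomial intervals. The member share is near 10% in libraries 1 to 5, while the identity-rich share of members ranges from 41.5% to 78.6%.

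The identity-rich share differed along the limits of the rule. Exactly 3 rule genes were detected in 3514 members, of which 31.7% were identity-rich, and the share was 70.2% with 4 rule genes, 91.8% with 5, 96.9% with 6 and 100% with 7. Just outside, 6854 nuclei had exactly 2 rule genes and met the other criteria, and 10.1% of them were identity-rich. At the Gfap limit, 1954 nuclei had exactly 1 Gfap UMI, and 67.1% were identity-rich. Of the 20538 nuclei with at least 3 rule genes, 4772 failed on neuronal transcripts alone, with a median of 8452 UMIs, and 2975 failed on Gfap alone. The values below are therefore given for all members and, for a part of the genes and lists, also for identity-rich members. Values given only for all members can differ in the identity-rich.

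The rule genes, which chose the members, are given as description only. Slc1a3, the glutamate transporter GLAST (chr15:8634124-8710764, minus strand, in GRCm38 coordinates of GENCODE M21, as for all genes here), was counted at 1101, 1014, 766, 665, 1366 and 1404 CPM (UMIs of the gene scaled to a fixed total of all UMIs) in members of libraries 1 to 6. In identity-rich members its level was 1837, 1883, 1627, 1513, 1961 and 2107 CPM, and in all other nuclei it lay between 105.4 and 209 CPM. Every library of members lay above every library of other nuclei, and members of libraries 3 and 4 were the lowest. Slc7a10, a transporter of small neutral amino acids (chr7:35186385-35201114, plus strand), was at 125, 118, 97.4, 86.9, 157 and 155 CPM in members and between 203 and 233 CPM in identity-rich members. Aqp4, the water channel of astrocyte endfeet, was detected in 38.6% of members and had levels of 103, 112, 117, 96.5, 131 and 145 CPM. Its pooled level was 150.5 CPM in identity-rich members and 79.6 CPM in identity-poor members.

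Members were compared with all other nuclei gene by gene, on UMIs summed over nuclei and scaled to CPM. Genes with at least 1000 UMIs over all nuclei were compared (14948 genes). A gene was called when the pooled CPM differed at least 2-fold and the difference had the same sign in all 6 libraries. By this rule 721 genes were higher in members (4.82%) and 119 were lower (0.796%), beside a median log2 ratio of 0.12 over all genes compared. This balance depended on the processing: with TMM factors 593 were higher and 213 lower, without members holding UMIs of other cell markers 654 and 400, and with nuclei thinned to 2000 UMIs 698 and 706. For identity-rich members, 1415 genes were higher (9.47%) and 1662 were lower (11.1%). Since the members were chosen on counts of the same nuclei, these numbers describe the members and test nothing. Lack of overlap between libraries, given below for single genes, is also only a description. A call already required the same sign in all 6 libraries. The share of all compared genes without overlap is not given here.

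The gene of highest ratio was Otc. This gene, the ornithine transcarbamylase of the urea cycle (chrX:10252305-10321024, plus strand), was at 12.7, 13.7, 8.54, 5.55, 28.8 and 32.3 CPM in members of libraries 1 to 6. All other nuclei had between 0.897 and 2.02 CPM of it, and the log2 ratio was 3.13 (95% 2.97 to 3.30). Otc was highest in libraries 5 and 6 and lowest in library 4, also among identity-rich members, where it ran from 14.3 CPM in library 4 to 51.0 CPM in library 6.

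Atp13a4, a P5-type ATPase (chr16:29395853-29544864, minus strand), was at 135, 127, 90.04, 91.5, 216 and 206 CPM in members and between 11.3 and 23.6 CPM in all other nuclei, a log2 ratio of 2.85. Gli2, a transcription factor of the hedgehog pathway (chr1:118834132-119053619, minus strand), was at 146, 130.1, 92.9, 88.3, 168 and 169 CPM, against 11.0 to 21.7 CPM in all other nuclei. Hif3a, which encodes a hypoxia-inducible factor subunit (chr7:17031507-17062427, minus strand), was at 194, 146, 101, 95.5, 209 and 235 CPM, against 14.2 to 25.2 CPM. For these genes every member library lay above every library of other nuclei, and members of libraries 3 and 4 were the lowest.

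Acsbg1, an acyl-CoA synthetase, was at 145 CPM in all members and 288 CPM in identity-rich members, against 23.5 CPM in other nuclei. Grin2c, an NMDA receptor subunit, reached 133 CPM in library 5 and 46.5 CPM in library 3, with at most 14.9 CPM in other nuclei of any library. Cbs, the cystathionine beta-synthase that makes cystathionine from homocysteine, was between 49.7 and 107 CPM, against 7.04 to 14.1 CPM. None of these groups overlapped, and neither did those of Etnppl, a phospholyase that breaks down phosphoethanolamine, at 10.7 to 47.2 CPM in members and 1.96 to 4.04 CPM in other nuclei. The lysine-degrading enzyme Aass, the thioesterase Acot11, the fatty acid hydroxylase Cyp4f15 and Nphs1, Pdzph1 and Nhsl1 completed the protein-coding genes among the 20 of highest ratio. The others were non-coding transcripts (C030005K06Rik, Gm41492, C030018K13Rik, Sardhos, Gm13266 and Gm6145), of which Gm6145 was the most abundant, at 158 CPM in members and 25.4 CPM in other nuclei. The sources used here do not say whether the counting used strand, so the level of the antisense transcript Sardhos is uncertain.

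**Figure D3:**
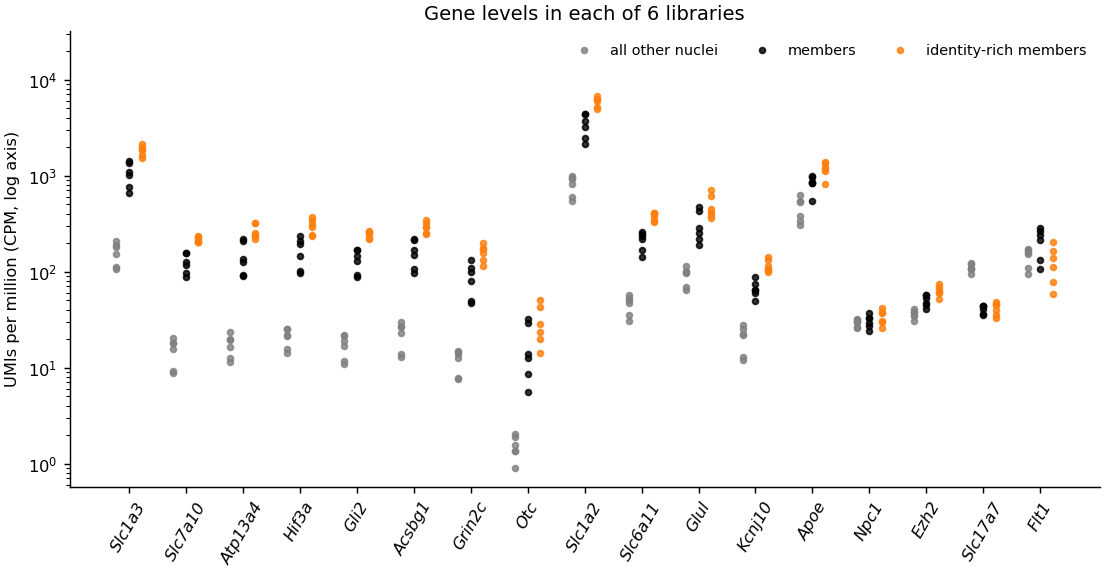
Levels of 17 genes in CPM (y axis, log scale) in each of the 6 libraries (points), for members (black), identity-rich members (orange) and all other nuclei (grey). For Atp13a4, Hif3a, Gli2, Acsbg1, Grin2c and Otc every member point lies above every point of all other nuclei, whereas the Npc1 points of members and all other nuclei overlap.

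The upstream sequences of 2 of these genes are shown because Nfia, a nuclear factor I protein whose family binds the half-site TTGGCA, was itself called higher in members. Sequences are from RefSeq (GRCm38.p6), cover the 250 bases before the annotated start, and are written 5′ to 3′ on the gene's strand, with each match to the half-site on either strand in capitals. A match describes the letters and is neither a binding site nor a cause. The Hif3a sequence lies at chr7:17062428-17062677 (minus strand), and its match begins 209 bases upstream of the start. The Gm6145 sequence lies at chr14:105631325-105631574 (minus strand), with its match beginning 149 bases upstream.

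Hif3a: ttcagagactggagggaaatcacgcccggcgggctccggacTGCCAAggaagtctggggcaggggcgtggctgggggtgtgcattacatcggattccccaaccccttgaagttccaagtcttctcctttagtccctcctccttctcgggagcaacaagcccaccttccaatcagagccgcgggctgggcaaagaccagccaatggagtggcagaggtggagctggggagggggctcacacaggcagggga

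Gm6145: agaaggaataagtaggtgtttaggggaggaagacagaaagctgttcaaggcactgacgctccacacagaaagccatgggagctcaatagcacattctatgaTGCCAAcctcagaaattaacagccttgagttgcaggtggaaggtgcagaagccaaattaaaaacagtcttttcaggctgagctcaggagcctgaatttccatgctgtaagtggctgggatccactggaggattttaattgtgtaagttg

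Of the 20 genes of highest ratio, 18 had a promoter sequence and 6 of those held TTGGCA on either strand. A gene was counted when any of its promoters held a match. Atp13a4, Etnppl, Nhsl1 and Acot11 each also had a promoter without a match, and their matching promoters overlapped an annotated exon. The half-site was present for 17.3% of the 543 genes called higher in members that had a promoter, for 12.03% of the 11216 compared genes with a promoter, and in 12.3% of all 32851 promoters. The SOX core AACAAT was present for 7.37% of the called genes, for 6.99% of the compared genes and in 9.42% of all promoters, and in none of the 18.

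Most genes that handle glutamate and GABA were higher. Of 13 genes, all compared, 9 were called higher in members and none lower, beside 4.82% and 0.796% of all genes compared. In identity-rich members 11 were higher and none lower, beside 9.47% and 11.1%. The list was not particular to members. It summed to 4802.5 CPM in members, 8415 CPM in identity-rich members and 8635 CPM in nuclei with at least 3 Gfap UMIs. Slc1a2, the main glutamate transporter of astrocytes, was at 3710.0, 3209.7, 2438, 2143, 4350.3 and 4412 CPM in members, against 544 to 985 CPM in other nuclei, a log2 ratio of 1.92. Slc6a11, the GABA transporter GAT3, was at 245, 219.6, 167, 140.2, 232 and 261 CPM, with at most 57.0 CPM in other nuclei. Glul, glutamine synthetase, was between 187 and 473 CPM, against 65.0 to 116 CPM. Members lay above other nuclei in every library pair, and library 4 was the lowest for each.

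Of 12 genes for potassium buffering, water and gap junctions, 8 were called higher and none lower, again beside 4.82% and 0.796% of all genes. Their sum was 2163 CPM in members, 3574 CPM in identity-rich members and 3405 CPM in nuclei with at least 3 Gfap UMIs. Kcnj10, the inward rectifier Kir4.1, was at 59.5, 64.8, 63.6, 49.6, 73.6 and 87.9 CPM in members and between 12.1 and 27.8 CPM in other nuclei, with no overlap. Gjb6, connexin 30, had a log2 ratio of 2.13 and Hepacam, a cell adhesion protein of astrocytes, had 2.05. The cation-chloride cotransporter Slc12a2 (-0.15) and the chloride channel Clcn2 (0.05) were not called. Among 19 genes of energy and fatty acid metabolism, 8 were called higher and none lower, beside the same shares. They included Pygm, a glycogen phosphorylase (log2 ratio 2.37), and Acsl3, an acyl-CoA synthetase (1.43). The metabolism list summed to 1570.5 CPM in members, 2441 CPM in identity-rich members and 2670 CPM in nuclei with at least 3 Gfap UMIs.

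Of 20 receptor genes compared of 21 listed, 10 were called higher and none lower, where 4.82% and 0.796% of all genes were. Fgfr3, a fibroblast growth factor receptor, had a log2 ratio of 2.48, and the epidermal growth factor receptor Egfr had 2.09. The metabotropic glutamate receptors Grm3 and Grm5 differed in direction. Grm3 was at 784 CPM in members and 345 CPM in other nuclei and was called higher, whereas Grm5 was at 1165 and 1749 CPM, lower in all 6 libraries but short of 2-fold. In identity-rich members Grm5 was called lower (log2 ratio -1.35). Of 14 synapse and matrix genes compared of 16, 8 were called higher, beside the same 4.82%, among them the phagocytic receptors Mertk (log2 ratio 2.46) and Megf10 (2.35). The receptor list summed to 4272 CPM in members and 4191 CPM in nuclei with at least 3 Gfap UMIs. The synapse and matrix list summed to 12418 CPM and 13326 CPM in the same order, and to 11050 CPM in OPCs.

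Transcription factors of the astrocyte lineage were higher in part, with 10 of 19 compared called higher and none lower, beside 4.82% and 0.796% of all genes. Their sum was not particular to members, at 6554 CPM in members, 7410 CPM in OPCs and 9181 CPM in ependymal nuclei. Nfia was at 928 CPM in members and 339 CPM in other nuclei (log2 ratio 1.45), and the related Nfib was at 594 and 391 CPM and was not called. Among 6 transcription factors of the telencephalon, 3 were called higher (Emx2, Otx1 and Pax6), in a list too short to set against that share. Of 14 transcription factors of other regions, 7 had enough UMIs to compare and 1 was called higher, Otx2, a factor of midbrain and thalamus, at 4.86 to 9.05 CPM against 2.14 to 3.32 CPM. A list of 7 is too short to read against the share of all genes.

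Cholesterol synthesis genes all had a pooled ratio above 1 in members, and 2 of the 20 were called 2-fold higher, beside 4.82% of all genes compared. The summed log2 ratio of the list was 0.51, from 0.31 to 0.97 over libraries, and the median was 0.44 beside 0.12 over all genes compared. In identity-rich members 7 were called, beside 9.47% of all genes, and the summed log2 ratio was 0.98. The list was not particular to members. It summed to 676.5 CPM in members, 934.5 CPM in identity-rich members and 977 CPM in nuclei with at least 3 Gfap UMIs. Msmo1, the sterol C4-methyl oxidase (chr8:64718139-64733792, minus strand), was at 75.7, 73.5, 64.7, 61.8, 124 and 125 CPM in members and between 31.1 and 36.4 CPM in other nuclei. Nsdhl, which acts in the same removal of C4 methyl groups (chrX:72918557-72958514, plus strand), was at 29.9, 35.6, 28.1, 29.2, 59.1 and 48.3 CPM, against 13.4 to 18.8 CPM. Neither gene overlapped with other nuclei, and both were highest in libraries 5 and 6. Hmgcs1, the HMG-CoA synthase, was at 100.1 CPM in members and 73.8 CPM in other nuclei and was not called.

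Of the 15 synthesis genes with a promoter, Hmgcs1 was the 1 that held the sterol regulatory element TCACNCCAC on either strand, which was present in 1.05% of all promoters, for 1.24% of the compared genes and for 2.21% of the genes called higher. Its upstream sequence (chr13:119690101-119690350, plus strand) is shown with that element, which begins 137 bases upstream, and the half-site TTGGCA, 175 bases upstream, in capitals.

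Hmgcs1: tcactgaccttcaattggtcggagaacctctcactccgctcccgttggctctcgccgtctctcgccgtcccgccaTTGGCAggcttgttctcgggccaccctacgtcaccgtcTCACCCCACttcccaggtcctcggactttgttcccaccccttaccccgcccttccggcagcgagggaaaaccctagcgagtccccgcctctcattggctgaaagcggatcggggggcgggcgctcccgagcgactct

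Of 18 genes for cholesterol export and its regulators, 3 were called higher in members, beside 4.82% of all genes compared: Abca1, which loads cholesterol onto apolipoproteins, Soat1, which esterifies it, and Lcat, which esterifies it on lipoproteins. The list was not particular to members. It summed to 1688 CPM in members, 1841 CPM in ependymal nuclei and 3679 CPM in nuclei with at least 3 Gfap UMIs. Abca1 was at 154, 139, 126, 126, 184 and 212 CPM, against 34.6 to 59.0 CPM in other nuclei (log2 ratio 1.58). Apoe was at 966, 837, 861, 546, 844 and 1001 CPM in members and between 306 and 629 CPM in other nuclei, with a log2 ratio of 0.79 in members, where it was not called, and 1.31 in identity-rich members, where it was. Apoe is an identity gene, so the latter value restates in part how those nuclei were chosen. Abcg1, another sterol exporter, went the other way, with 20.7 CPM in members, 10.6 CPM in identity-rich members and 29.1 CPM in other nuclei, and it was called lower in identity-rich members.

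None of the 10 genes of lysosomal cholesterol egress was called in members, and at the share of 4.82% called higher among all genes compared a list of this size need hold none. Npc1 itself was at 32.5, 37.1, 27.2, 24.3, 33.2 and 29.3 CPM in members of libraries 1 to 6 and at 29.6, 31.8, 26.7, 25.6, 31.5 and 29.5 CPM in other nuclei. The groups overlapped, the log2 ratio was 0.08 (95% -0.01 to 0.17), and its sign turned under other scalings of the pooled sums (-0.04 with TMM factors). In identity-rich members Npc1 was above other nuclei in all 6 libraries, at 35.1 against 29.1 CPM (log2 ratio 0.27). The level was 63.2 CPM in OPCs, 48.9 CPM in microglia and 21.7 CPM in excitatory neurons. Npc2, the soluble partner of NPC1 in the lysosome, was at 29.98 CPM in members and 19.6 CPM in other nuclei and was higher in all 6 libraries. The libraries of both genotypes are pooled in these values.

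**Figure D4:**
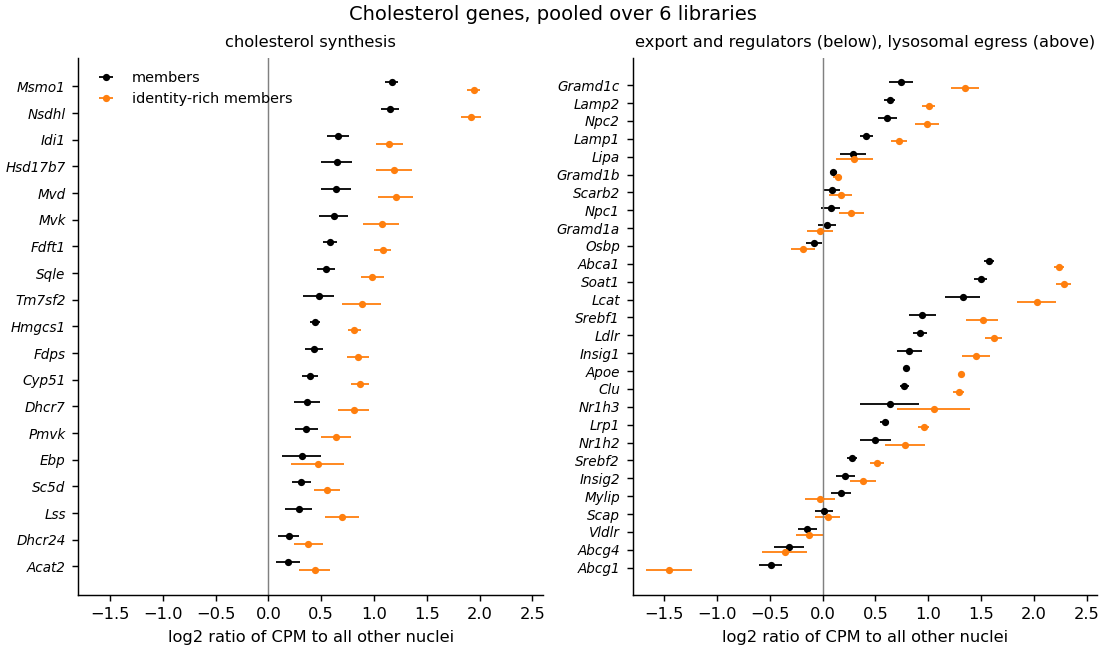
Log2 ratio of CPM to all other nuclei (x axis) for 19 of the 20 cholesterol synthesis genes (left), and 18 export and regulator genes with 10 lysosomal egress genes above them (right), in members (black) and identity-rich members (orange), pooled over 6 libraries with 95% counting intervals. The synthesis genes lie above 0, while Npc1 lies near 0 and Abcg1 below it.

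No gene of 9 that write, read or remove H3K27 methylation and acetylation was called, beside the same 4.82% of all genes. Ezh2, the catalytic subunit of the Polycomb complex, was at 56.7, 47.4, 45.4, 41.0, 56.4 and 53.4 CPM in members and between 30.9 and 40.7 CPM in other nuclei, a log2 ratio of 0.41. Members were higher in all 6 libraries, but the lowest member library lay next to the highest of other nuclei, and the log2 ratio was 0.30 with TMM factors. In thyroid hormone handling, Dio2, which activates the hormone in astrocytes, was called higher (42.3 against 9.08 CPM), as was the carrier Slco1c1 (267 against 109.9 CPM), whereas the receptor genes Thra and Thrb were not. The thyroid list was not particular to members. It summed to 993 CPM in members, 1148 CPM in identity-rich members and 1349 CPM in endothelial nuclei. Of 24 reactive astrocyte genes, 13 had enough UMIs to compare, and none was called in members, and at 4.82% of all genes a list of this size need hold none. All 13 had a ratio above 1, with a summed log2 ratio of 0.51 beside a median of 0.12 over all genes. This was not particular to members: the list summed to 259 CPM in members, 246 CPM in OPCs and 234 CPM in microglia. It was at 479 CPM in endothelial nuclei and 519 CPM in ependymal nuclei, and at 80.2 CPM in excitatory neurons. C4b, a complement component, was at 7.90, 7.03, 20.9, 19.3, 10.2 and 24.997 CPM, and libraries 3, 4 and 6 were above the others. Of 12 genes of immature astrocytes and radial glia, 5 were called higher (Tnc, Igfbp2, Hes5, Ptprz1 and Pax6), beside 4.82% of all genes, and Vim and Sox11 were not. This list, too, was not particular to members, at 1288 CPM in members, 2224 CPM in OPCs and 1278 CPM in ependymal nuclei. Nuclei with at least 3 Gfap UMIs held 2145 CPM. None of 6 immediate early genes compared was called, a list too short to read against that share.

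Transcripts of other cell types were present in members and differed between the identity ranges. Summed markers of excitatory neurons were at 5284 CPM in identity-poor members and 2193 CPM in identity-rich members, and those of endothelial cells were at 853 and 426 CPM. Oligodendrocyte markers went the other way, at 908 CPM in identity-poor members, 2005 CPM in identity-rich members and 1347 CPM in all other nuclei, and inhibitory neuron markers were at 1310.3 and 1246 CPM in the identity-poor and identity-rich. Identity-poor nuclei were also deeper, with a median of 4966.5 UMIs against 3260. At least 3 of the 6 endothelial markers were detected in 14.3% of identity-poor members, 4.99% of identity-rich members and 2.81% of excitatory neurons, whose median was 11329 UMIs. Markers of microglia, endothelial cells, pericytes and fibroblasts gave at least 2 UMIs in 70.1% of identity-poor members, 59.8% of identity-rich members and 58.7% of excitatory neurons. The part of these transcripts in the results was not tested.

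Between identity-poor and identity-rich members, 12421 genes were compared, 1235 were higher in the identity-poor (9.94%) and 1175 were lower (9.46%). Rbfox3, the neuronal nuclear protein NeuN, was at 410.3, 432, 408, 489, 402 and 387 CPM in identity-poor members, at 108, 101, 104, 158, 69.2 and 51.0 CPM in identity-rich members and at 423 CPM in all other nuclei. Identity-poor and identity-rich members did not overlap. Syt1, a synaptic vesicle calcium sensor, was at 2527 CPM in identity-poor members, 845 CPM in identity-rich members and 2609 CPM in other nuclei. Flt1, a VEGF receptor of endothelium, was at 309.8, 132 and 148 CPM in the same order. Identity-poor members thus held Rbfox3 and Syt1 near the pooled level of all other nuclei. The antisense transcript Gm11418, 5530401A14Rik and the non-coding Gm20752 had the highest ratios among genes called higher in identity-poor members.

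Members were then compared with nuclei that met the same rule but held at least 3 Gfap UMIs. There were 502 such nuclei, 41 to 154 per library, and 446 of them were identity-rich. They were deeper than members. The median was 4500 UMIs in the 502 nuclei against 3715 in members, and 4450.5 against 3260 among identity-rich nuclei. Of 12663 genes, 277 were higher in the Gfap-rich nuclei (2.19%) and 291 were lower (2.3%), against 189 and 445 with TMM factors. The comparison was repeated on identity-rich nuclei of both groups, where 123 of 10450 genes were higher (1.18%) and 38 were lower (0.364%). Gfap itself separated the groups by the rule.

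Myoc, a secreted glycoprotein (chr1:162639155-162649693, plus strand), was at 359.6, 350.4, 187, 120.2, 312 and 305 CPM in Gfap-rich nuclei of libraries 1 to 6 and at 12.7, 10.9, 11.8, 10.6, 17.4 and 12.5 CPM in members. Nuclei with 1 or 2 Gfap UMIs were at 15.7 to 41.2 CPM. The groups with 0 and with at least 3 Gfap UMIs did not overlap, and the log2 ratio among identity-rich nuclei was 4.03 (95% 3.83 to 4.25). Aqp4 was at 804, 961, 600.4, 558, 1136 and 873 CPM in Gfap-rich nuclei, against 96.5 to 145 CPM in members. It is a rule gene, and as a description it had a log2 ratio of 2.44 among identity-rich nuclei. On the same scale, and outside the rule, the hyaluronan receptor Cd44 (2.33), the peptidylarginine deiminase Padi2 (2.90), the protease inhibitor A2m (2.48) and the amino acid transporter Slc38a1 (2.44) were also called higher. Of 10 reactive astrocyte genes compared among identity-rich nuclei, 6 were called higher (Vim, C4b, Cd44, Osmr, Ggta1 and S100a10), beside 1.18% of all genes. The list holds 24 genes, and a gene needed at least 200 UMIs over both groups. A sparse gene could pass because it was high in the Gfap-rich nuclei, so the 6 of 10 is a description only. C4b was at 69.4 to 109 CPM in Gfap-rich nuclei, 7.03 to 24.997 CPM in members and 10.3 to 37.3 CPM in identity-rich members. Apoe was at 1358 to 3250.2 CPM, against 546 to 1001 CPM in members, and was called higher among identity-rich nuclei (log2 ratio 1.16).

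**Figure D5:**
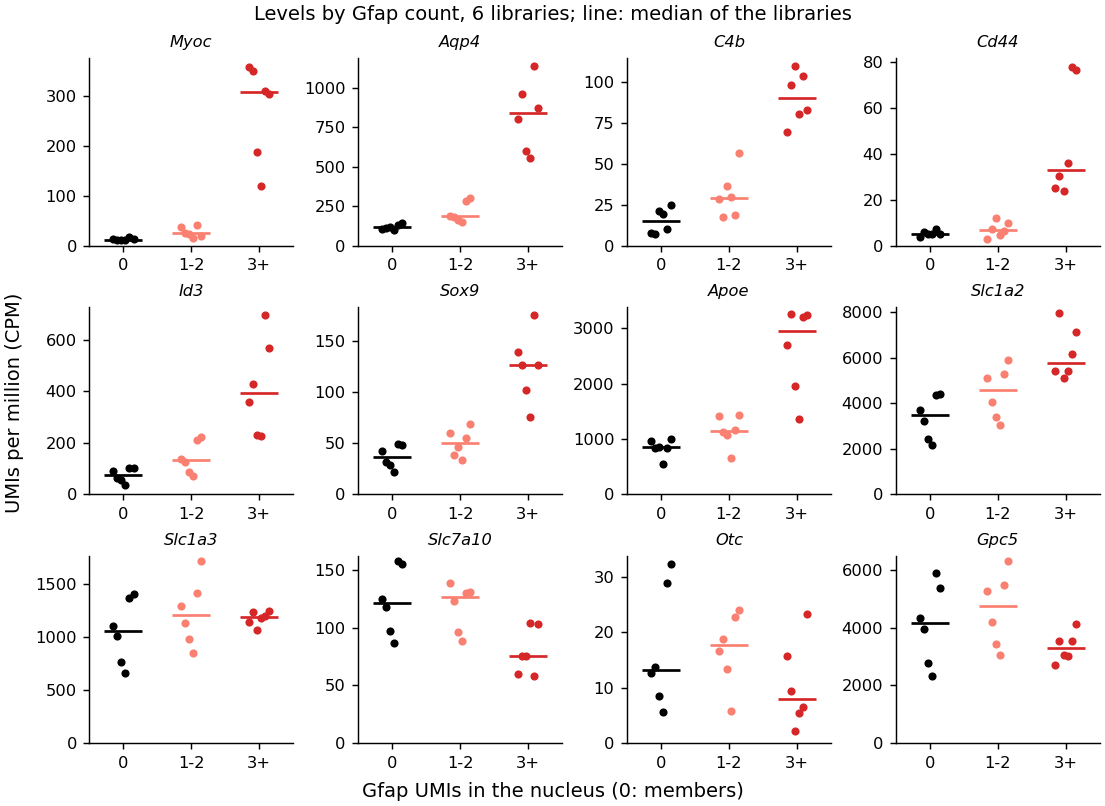
Levels in CPM (y axes) of 12 genes in members (Gfap 0) and in nuclei with 1 or 2 or with at least 3 Gfap UMIs that met the rest of the rule (x axis), with 1 point per library and a line at the median of the libraries. Myoc, Aqp4, C4b, Cd44, Id3, Sox9 and Apoe are higher at 3 or more, with no overlap with members.

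Other genes were lower in Gfap-rich nuclei. Among identity-rich nuclei, Pygm had a log2 ratio of -1.61 and the GABA receptor subunit Gabbr2 one of -1.04, each lower in all 6 libraries. The rule gene Slc7a10 had a log2 ratio of -1.22, given as description like that of Aqp4, since detection of the rule genes chose both groups. Gpc5, a glypican and an identity gene, was at 5765 to 8707 CPM in identity-rich members and 2688 to 4114 CPM in Gfap-rich nuclei. In all members it was at 2319 to 5874 CPM, which overlaps the range of the Gfap-rich nuclei. Slc1a3, also a rule gene, had a log2 ratio of -0.49 and was not called. No gene of cholesterol synthesis or lysosomal egress was called among identity-rich nuclei, where 1.18% of all genes were higher and 0.364% lower, so that lists of this size need hold none. Among identity-rich nuclei, endothelial markers were higher in the Gfap-rich nuclei of all 6 libraries (summed log2 ratio 0.84), with Flt1 and Mecom called. Over all nuclei of both groups, these markers summed to 893 CPM in Gfap-rich nuclei and 654 CPM in members. Their part in the other differences was not tested.

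Agt, the angiotensinogen gene that marks astrocytes outside the telencephalon, and Mfge8, a secreted bridging protein of telencephalic astrocytes, were sparse. An Agt UMI was found in 8.67% of members and in 4.54% of excitatory neurons, and an Mfge8 UMI in 12.4% and 6.42%, at median depths of 3715 and 11329 UMIs. Agt without Mfge8 was found in 594 members, Mfge8 without Agt in 884, both in 76 and neither in 6175. Of 6321 genes compared, 6 were higher in the Agt nuclei, Agt included (0.0949%), and 26 were lower, Mfge8 included (0.411%). The latter count rested on single libraries, at 13 without library 1, 10 without library 2 and 60 without library 3. The lower genes of largest difference included the vascular genes Cxcl12, Nid1, Esam and Emcn, and the summed endothelial markers had a log2 ratio of -1.05. In identity-rich members, where 4284 genes were compared, 7 were higher, Agt included (0.163%), Mfge8 was the only gene called lower (0.0233%), and the endothelial markers had a log2 ratio of -0.60.

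Within identity-rich members, Agt nuclei held more Cdh22, a cadherin (log2 ratio 1.54, 95% 1.10 to 1.98), Etnppl (1.08), Gm33680 (1.23), Gm29683 (1.10), B230323A14Rik and Erbb4, each in all 6 libraries. Etnppl was at 52.2, 27.3, 41.4, 32.8, 69.3 and 149 CPM in all Agt nuclei and at 20.4, 16.6, 14.1, 14.7, 50.5 and 18.1 CPM in all Mfge8 nuclei. The groups overlapped across libraries, but within every library Agt nuclei were higher. These calls were not stable: with the identity limit at 1.5%, 3 genes were higher, Agt included, and over all members 1 was higher when nuclei were thinned, 1 without other markers and 1 at a fold of 3. Slc6a11 differed by a log2 ratio of 0.69 and was not called.

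Levels in members varied more between libraries than levels in all other nuclei, which were more numerous. Over 10959 genes with at least 20 UMIs in the members of every library, the median ratio of the highest to the lowest library was 1.48 in members and 1.26 in other nuclei. Of these genes, 1515 differed at least 2-fold between the extreme libraries of members, 350 of them also in other nuclei. Over the 8978 genes with as many UMIs in identity-rich members of every library, the median was 1.44 in members, 1.49 in identity-rich members and 1.246 in other nuclei. Gm9925, a gene named only by its model, was at 36.4, 29.7, 14.9, 12.1, 90.3 and 103 CPM in members and at 5.21 to 14.5 CPM in other nuclei. Ppp1r3g, a regulator of glycogen synthesis, was at 7.28, 4.002, 2.89, 3.75, 16.5 and 11.2 CPM, against 1.45 to 2.19 CPM. Like Otc, both were highest in libraries 5 and 6, where the identity-rich share was also highest. In other nuclei, too, Gm9925 was highest in libraries 5 and 6, at 13.98 and 14.5 CPM, whereas Otc and Ppp1r3g were not. In identity-rich members alone Gm9925 was at 60.6, 54.9, 31.8, 26.4, 126 and 150.2 CPM, again highest in those libraries.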

How the data were processed

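Single nuclei were isolated from flash frozen forebrain and captured with 10x Chromium. The values deposited by the authors are raw UMI counts per gene and nucleus, in 1 matrix of 32285 genes and 75878 barcodes. The submitters' processing notes name Cell Ranger 2.1.1 and the build mm10, the matrix header names Cell Ranger 6.0.0, and the paper's methods name STARsolo on GRCm38, so the counter of this matrix is not settled. Genes are named by the matrix. No column ties a library suffix to a mouse, so the planned edgeR comparison of genotypes was not made, and how the libraries map to the labelled mice was not inferred.

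From the counts, 11 nuclei with 10% or more mitochondrial UMIs were left out and the members were found by the rule. Their neuronal (Slc17a7, Slc17a6, Gad1, Gad2), Pdgfra, ependymal (Foxj1, Dnah12, Spag17) and dividing (Top2a, Mki67) UMIs were at most 1 per set, and Gfap and Mog were 0. UMIs were summed by library and population and divided by the total (CPM). Intervals are 95% exact Poisson or binomial intervals and cover counting error only. Genes needed at least 1000 UMIs over all nuclei, or at least 200 over both groups in the smaller comparisons. The members and the gene lists were chosen with earlier results of these data known, and the 1% identity limit was set after the share was seen.

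Genes were named by rank: the 20 of highest ratio among those called, the 10 highest and lowest in the Gfap and Agt comparisons, the 10 of widest library range, and in each list the 4 of highest CPM and the 2 of highest and lowest ratio, with Npc1, Npc2, Ezh2 and Apoe always. A few genes that this rule names are not reported here. Id3, Sox9, Lcat, Otx1, Igfbp2, Hes5, S100a10, B230323A14Rik, Gm11418 and 5530401A14Rik were named after their values were seen. Doublets were scored with Scrublet in scanpy 1.11.5 and kept. The highest 10% of scores took 10.4% of members (9.32% of identity-rich and 12.1% of identity-poor members) and 9.91% of all nuclei. Thinning, other rule limits, leaving out each library, and TMM and median-of-ratios factors (edgeR 4.0.16, on pooled sums) were alternatives. The steps used Python 3.11.15, numpy 2.4.6, scipy 1.17.1 and pandas 2.3.3, and were tested on simulated data.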

Additional observations from a re-analysis of the deposited data

How the results depend on the processing

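No called value changed direction, and the ratio of Npc1, which was not called, was below 1 under the scaling factors (-0.04), with at least 2 rule genes (-0.01) and without other markers (-0.00). Of 388 values under alternative settings, 161 moved by less than the interval or, for counts of genes, by less than 1.5 times, and 227 moved further. The values that follow are given in the order share of nuclei, genes higher, genes lower, log2 ratio of identity genes and of cholesterol synthesis genes. With at least 2 rule genes they were 19.2%, 293, 63, 1.10 and 0.26, and with at least 4 they were 5.56%, 1094, 827, 2.24 and 0.78. For identity-rich members, chosen after seeing the data, they were 6.05%, 1415, 1662, 2.597 and 0.98, and with a limit of 1.5% they were 5.13%, 1470, 1949, 2.74 and 1.05. Thinning gave 9.36%, 706 genes lower, 2.12 and 0.75. Leaving out members with UMIs of other markers gave 3.67%, 400 genes lower, 1.82 and 0.56. Allowing 1 Gfap UMI gave 12.8%, 1.86 and 0.55, and leaving out the highest doublet scores gave 1.84 and 0.57. The identity ratio was 1.76 at a mitochondrial share under 1% and 1.74 at 2000 UMIs or more. TMM factors gave 213 genes lower, 1.61 and 0.40, and median-of-ratios factors gave 221, 1.61 and 0.40. Without a gene filter 858 genes were lower, and at a fold of 3 the counts were 239 and 24. In the Gfap comparison the genes higher and lower were 701 and 691 with at least 2 rule genes, 141 and 49 with at least 4, 151 and 140 when thinned, 123 and 38 for identity-rich nuclei, 128 and 47 at 1.5%, and 76 and 36 at a fold of 3, while 445 were lower with TMM factors and 970 without a filter. In the Agt comparison the genes lower were 94 with at least 2 rule genes, 2 with at least 4, 48 with 1 Gfap UMI allowed, 15 at a mitochondrial share under 1% and 1 in identity-rich members, and the genes higher and lower were 1 and 1 when thinned, 1 and 2 without other markers, 27 and 129 without a filter, 1 and 2 at a fold of 3, and 3 and 1 at 1.5%. Leaving out each library in turn gave a share of 9.95% to 10.5%, an identity ratio of 1.59 to 1.87, a cholesterol synthesis ratio of 0.45 to 0.56 and 10 to 60 genes lower in Agt nuclei (13 without library 1, 10 without library 2 and 60 without library 3). The cause of these shifts was not tested. No paired analysis was possible because no key ties the libraries to mice, and DESeq2 was not run for the same reason. Sparse genes such as Agt limit what a nucleus of this depth can show.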

Other observations

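The myelin gene Mbp had a wide library range in members. It was at 1709, 1308, 356, 264, 1471 and 346 CPM in members of libraries 1 to 6 and at 1315, 1171, 338, 267, 914 and 234 CPM in all other nuclei. Its level was high or low in the same libraries in members and in other nuclei. These values assign no library to a genotype.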
